A study of Mus musculus with 12 samples.

Results

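miR-126 is read out here as 2 mature miRNAs, miR-126-3p (mmu-mir-126-3p) and miR-126-5p (mmu-mir-126-5p), which are cut from the 2 arms of 1 hairpin. They are 2 of the 1251 miRNA rows in a small RNA sequencing table of mouse skin and skin tumours, and were chosen by name, as the rows of these arms. Of the rows, 544 were above the floor of the table in at least 2 of 12 libraries and were tested, both arms among them. The tumours were cutaneous squamous cell carcinomas (SCC) of mice older than 35 weeks under chronic ultraviolet radiation (UVR), given at 2.5 kJ/m2 and 3 times a week. SCC libraries came from 4 TAp63-/- samples and 2 wild-type (WT) samples. Dorsal skin libraries came from 3 TAp63-/- and 3 WT samples of untreated mice, 4 weeks old. All mice were of the C57Bl6 strain, and TAp63 is the form of the p53-family transcription factor p63 with the N-terminal transactivation domain. The labels do not say whether the knockout is confined to a cell type, nor whether each sample is a separate mouse, so the p-values reflect only how these samples vary, and that variation may be technical.

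miR-126 is known as the miRNA of endothelial cells, the lining of blood and lymph vessels, and it is also made in blood stem cells and megakaryocytes. Its hairpin lies inside Egfl7, which encodes a protein secreted by endothelium. In mouse and zebrafish, miR-126-3p represses Spred1 and Pik3r2, which restrain signalling by vascular endothelial growth factor, and it represses the adhesion molecule Vcam1. In mouse endothelium, miR-126-5p represses Dlk1, an inhibitor of Notch signalling. The 3p arm was first described as the guide strand and the 5p arm as the star strand (miR-126*).

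The mature 3p sequence is shown because its seed, in capitals at bases 2 to 8, is what pairs with target RNAs. The hairpin is shown, with the mature 3p arm in capitals at bases 46 to 67, because both products compared below come from it. Both are from RefSeq (GRCm38.p6), whose table matched 1 of the 2 members, and miR-126-5p is named only.
miR-126-3p: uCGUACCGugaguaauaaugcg
miR-126a hairpin: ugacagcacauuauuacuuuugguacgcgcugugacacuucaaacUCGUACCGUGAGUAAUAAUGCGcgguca
None of the other names among the 1738 mature entries of that table has the seed of miR-126-3p. The hairpin lies at chr2:26591357-26591429 on the plus strand (GRCm38, the assembly of the mm10 build of the study), and the mature 3p arm at chr2:26591402-26591423. In the GENCODE annotation, the hairpin lies within introns of all 7 protein-coding Egfl7 transcripts that span it, and within an exon of 1 retained-intron transcript of Egfl7. A hairpin on the minus strand, Mir126b, overlaps it, and its products were not analysed here. Another gene on the plus strand, Gm20532, has 1 transcript that spans the miR-126a hairpin, with no exon over it.

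Values are the authors' normalized log2 levels. Every library had been brought to nearly the same set of values, so a level stands for the place of a miRNA in the order of its library. The libraries had 370 to 545 miRNAs above the floor, a linear value of 10. Read counts are not kept on such a scale, so the depth is unknown and counting error could not be assigned. The skin and tumour libraries differ in age and UVR as well as in tissue, and their titles carry different prefixes that the labels do not explain, so these cannot be told apart from the tumour. All 8 keratinocyte and epithelial miRNAs on the list were above the floor in at least 2 libraries, which is only the filter for testing. Their summed linear level, put on a log2 scale, was 18.28 to 19.28 in TAp63-/- SCC, 18.78 to 18.96 in WT SCC, 18.33 to 18.62 in TAp63-/- skin and 18.36 to 18.80 in WT skin. The table holds miRNAs only, so no endothelial mRNA could be set beside miR-126.

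Both arms were abundant in every library, and the 5p arm was the more abundant one throughout. Averaged over the 12 libraries, miR-126-5p had a log2 level of 15.74 ± 0.34 (SD) and held place 21 among all miRNAs, and miR-126-3p had 13.00 ± 0.24 and held place 62. Of the summed linear values of a library, miR-126-5p took 0.657% to 1.40% and miR-126-3p 0.112% to 0.189%. Within a group, the SD was 0.18 for miR-126-3p and 0.24 for miR-126-5p, pooled over the 4 groups, against a median of 0.47 for the 315 miRNAs above the floor in all libraries. Of those 315, 4 had a smaller within-group SD than miR-126-3p, and 19 a smaller one than miR-126-5p.

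The log2 level of miR-126-5p was 15.66, 15.88, 16.17 and 16.37 in TAp63-/- SCC and 15.78 and 16.09 in WT SCC. In skin it was 15.28, 15.49 and 15.45 in TAp63-/- mice and 15.78, 15.45 and 15.45 in WT mice. All 4 TAp63-/- SCC libraries lay above all 3 TAp63-/- skin libraries, while the WT groups met at 15.78, the level of WT SCC replicate 1 and of WT skin replicate 1. The share of all tested miRNAs with such a separation was not counted. In the order of each library the arm held places 16 to 24 in TAp63-/- SCC and 19 to 22 in WT SCC, against 26 to 28 in TAp63-/- skin and 22 to 27 in WT skin. Neighbouring places in this range were a median of 0.082 apart on the log2 scale.

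The log2 level of miR-126-3p was 13.01, 12.73, 13.20 and 12.89 in TAp63-/- SCC and 13.27 and 13.48 in WT SCC. In skin it was 12.89, 12.82 and 12.73 in TAp63-/- mice and 12.73, 13.08 and 13.13 in WT mice. Both WT SCC libraries lay above all the others, and the remaining 3 groups overlapped. How often this occurs among the tested miRNAs was not counted. The lowest level, 12.73, occurred in TAp63-/- SCC replicate 2, TAp63-/- skin replicate 3 and WT skin replicate 1, which all held it at place 68. Places ran from 55 to 68 over the 12 libraries, with neighbouring places a median of 0.051 apart on the log2 scale.

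**Figure D1:**
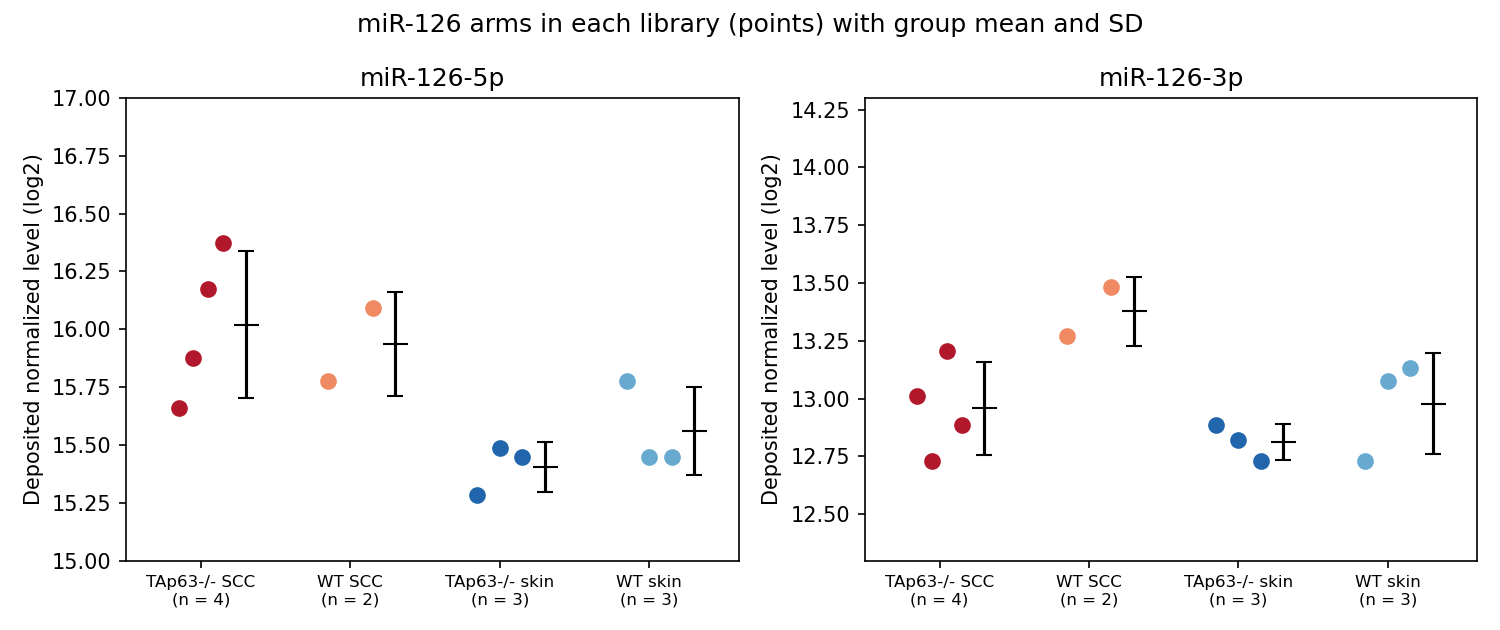
Normalized log2 level of miR-126-5p (left) and miR-126-3p (right) in each library, by group; bars are the group mean and SD, and the y axes do not start at 0. miR-126-5p lay at 15.66 to 16.37 in all SCC libraries and at 15.28 to 15.78 in skin, and both WT SCC libraries had the highest miR-126-3p.

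The study asks what TAp63 and tumour formation do to the miRNAs of skin. For miR-126, SCC had more of the 5p arm than skin, and the 3p arm did not pass the test. In bulk tissue, fewer cells of a type and less RNA per cell cannot be told apart. Averaged over the genotypes, miR-126-5p rose 1.41-fold in SCC, by 0.50 ± 0.17 on the log2 scale (SE, 95% interval 0.13 to 0.86), with a limma adjusted p of 0.0324. miR-126-3p differed by 0.27 ± 0.16 (interval -0.070 to 0.61), with an adjusted p of 0.190. In this comparison 41.9% of the 544 miRNAs were called, 20.4% as higher and 21.5% as lower, so that 1 called arm of 2 does not set miR-126 apart. The median change over the 544 was 0.044, or 0.16 under median-ratio scaling, where miR-126-5p changed by 0.62 (adjusted p = 0.00967) and miR-126-3p by 0.39 (adjusted p = 0.0635).

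The call of miR-126-5p depended on single libraries. It ended when 1 library was left out in 7 of 12 cases: the adjusted p was 0.0737 without WT skin replicate 2, 0.0703 without WT skin replicate 3, 0.0685, 0.0524 and 0.0533 without TAp63-/- skin replicates 1, 2 and 3, 0.107 without WT SCC replicate 2 and 0.0504 without TAp63-/- SCC replicate 3. The change itself ranged from 0.42 to 0.58 over the 12 cases.

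Within TAp63-/- mice, miR-126-5p averaged 16.02 ± 0.32 (SD, n = 4) in SCC and 15.41 ± 0.11 (SD, n = 3) in skin, both on the log2 scale. It rose 1.53-fold, by 0.61 ± 0.21 on the log2 scale (SE, interval 0.15 to 1.08), with a limma adjusted p of 0.0432. Among the 544 miRNAs 34.2% were called here, 16.0% as higher and 18.2% as lower. miR-126-3p averaged 12.96 ± 0.20 in SCC and 12.81 ± 0.078 in skin, a difference of 0.14 ± 0.20 (interval -0.29 to 0.58, adjusted p = 0.609). That difference was 0.062 without TAp63-/- SCC replicate 3, 0.22 without TAp63-/- SCC replicate 2 and 0.24 under median-ratio scaling. The call of miR-126-5p ended with these 2 groups fitted alone (adjusted p = 0.0867). It also ended without WT skin replicate 1, 2 or 3 (adjusted p of 0.0553, 0.0621 and 0.0569), TAp63-/- skin replicate 1, 2 or 3 (0.133, 0.0831 and 0.0905), or TAp63-/- SCC replicate 3 or 4 (0.0856 and 0.0931).

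Within WT mice neither arm passed the test, where 18.2% of miRNAs were called, 8.82% as higher and 9.38% as lower. miR-126-5p averaged 15.94 ± 0.22 (SD, n = 2) in SCC and 15.56 ± 0.19 (SD, n = 3) in skin, and the difference was 0.38 ± 0.25 on the log2 scale (SE, interval -0.18 to 0.94, adjusted p = 0.346), or 0.22 without WT SCC replicate 2. miR-126-3p averaged 13.38 ± 0.15 in SCC and 12.98 ± 0.22 in skin, and the difference was 0.40 ± 0.24 (interval -0.12 to 0.92, adjusted p = 0.292). The intervals leave room for no change and for a rise as large as that of miR-126-5p in TAp63-/- mice. Tested directly, the effect in TAp63-/- tumours minus that in WT tumours was 0.24 ± 0.33 for miR-126-5p (interval -0.49 to 0.96, adjusted p = 0.875) and -0.25 ± 0.31 for miR-126-3p (interval -0.94 to 0.43, adjusted p = 0.866). For miR-126-5p that value ran from 0.079 without WT SCC replicate 1 to 0.39 without WT SCC replicate 2, and was 0.13 without WT skin replicate 1, 0.12 without TAp63-/- SCC replicate 4 and 0.36 without TAp63-/- SCC replicate 1. For miR-126-3p it was -0.13 without WT skin replicate 1 and -0.15 without WT SCC replicate 2. In that comparison limma called 0 of 544 miRNAs, with 41 at an unadjusted p under 0.05.

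Loss of TAp63 was not accompanied by a called change of either arm. In SCC, the difference of miR-126-3p between TAp63-/- and WT tumours was -0.42 ± 0.23 on the log2 scale (interval -0.92 to 0.077, adjusted p = 0.589), and all 4 TAp63-/- libraries lay below both WT libraries. In this comparison 0.184% of miRNAs, that is 1, were called, with 46 at an unadjusted p under 0.05. How many of the 544 miRNAs separate these 4 and 2 libraries completely was not counted. The difference of miR-126-5p was 0.085 ± 0.24 (interval -0.44 to 0.61, adjusted p = 0.925), and its sign changed without WT SCC replicate 1 (-0.073) or TAp63-/- SCC replicate 4 (-0.034). In skin, miR-126-3p differed by -0.17 ± 0.21 (interval -0.63 to 0.30) and miR-126-5p by -0.15 ± 0.23 (interval -0.65 to 0.35) between TAp63-/- and WT mice, both with an adjusted p of 1. The difference of miR-126-3p became -0.29 when WT skin replicate 1 was left out and -0.090 when replicate 3 was, and that of miR-126-5p became -0.042 without WT skin replicate 1 and -0.091 without TAp63-/- skin replicate 1. There limma called 0 miRNAs, with 31 at an unadjusted p under 0.05.

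**Figure D2:**
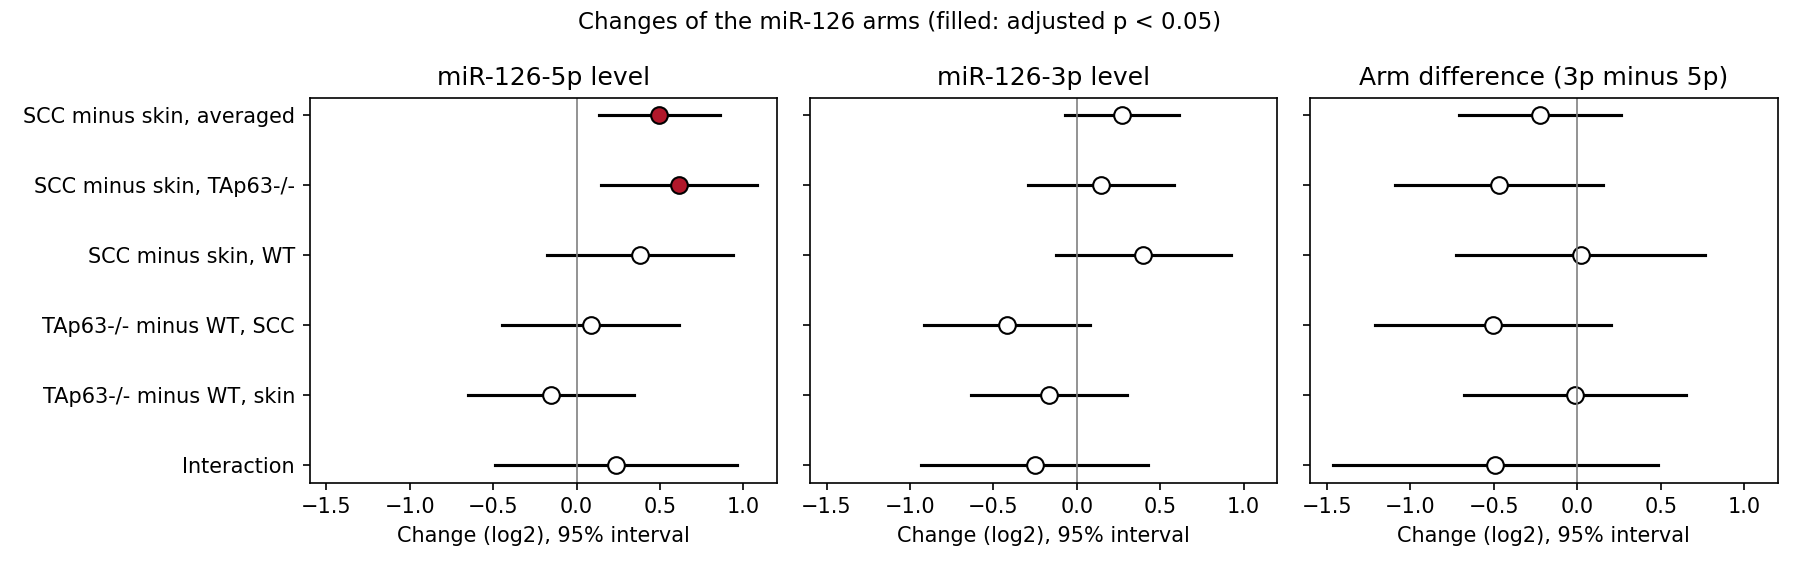
Log2 change of miR-126-5p, of miR-126-3p and of the difference between the arms (3p minus 5p) in the 5 comparisons and in the interaction, which is the tumour effect in TAp63-/- mice minus that in WT mice; lines are 95% intervals from limma. The averaged tumour effect (0.50) and the TAp63-/- tumour effect (0.61) of miR-126-5p are the filled points.

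The ratio of the arms compares both products within a library, so anything that scales both alike drops out. It still depends on how well each sequence was captured in library preparation, which was not measured, and on the spacing of places in the shared set of values. On the linear scale, miR-126-5p exceeded miR-126-3p by 6.27-, 8.85-, 7.82- and 11.2-fold in TAp63-/- SCC and by 5.68- and 6.11-fold in WT SCC. In skin the ratio was 5.27, 6.33 and 6.58 in TAp63-/- mice and 8.27, 5.18 and 4.99 in WT mice. The 3p arm thus made up 8.18% to 13.8% of the sum of both arms in TAp63-/- SCC, 14.07% to 14.96% in WT SCC, 13.2% to 16.0% in TAp63-/- skin and 10.8% to 16.7% in WT skin. WT skin replicate 1 stood apart from the other skin libraries, with the highest 5p and a shared lowest 3p level.

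As log2 of 3p minus log2 of 5p, the arm difference averaged -3.06 ± 0.35 (SD, n = 4) in TAp63-/- SCC, -2.56 ± 0.073 (SD, n = 2) in WT SCC, -2.59 ± 0.17 (SD, n = 3) in TAp63-/- skin and -2.58 ± 0.41 (SD, n = 3) in WT skin. All 4 TAp63-/- SCC libraries lay below both WT SCC libraries, and 3 of them lay below all TAp63-/- skin libraries. None of these contrasts passed a test, and how many of the 147 hairpin names separate in the same ways was not counted. Of the arm differences of all 147 hairpin names, limma called 0 between TAp63-/- and WT SCC, with 11 at an unadjusted p under 0.05. It called 25.9% between SCC and skin of TAp63-/- mice, 17.7% as higher and 8.16% as lower. Between TAp63-/- and WT SCC the change was -0.50 ± 0.34 (SE, interval -1.21 to 0.20, limma adjusted p = 0.667), and an exact two-sided permutation test gave p = 0.133, where the smallest possible was 0.0667. Between SCC and skin of TAp63-/- mice it was -0.47 ± 0.30 (interval -1.09 to 0.15, adjusted p = 0.258), with an exact permutation p of 0.114 and a smallest possible p of 0.0286. Averaged over the genotypes, SCC minus skin was -0.22 ± 0.23 (interval -0.71 to 0.26, adjusted p = 0.460), with an exact permutation p of 0.274 and a smallest possible p of 0.00286 when libraries were exchanged within genotype. Without WT skin replicate 1 it was -0.34.

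Between SCC and skin of WT mice the change of the arm difference was 0.021 ± 0.36 (interval -0.73 to 0.77, adjusted p = 0.981) against 29.3% of hairpin names called, 17.7% as higher and 11.6% as lower, and its sign changed without WT skin replicate 1 (-0.21) or WT SCC replicate 1 (-0.031). The exact permutation p was 1, with 0.1 the smallest possible. Between TAp63-/- and WT skin it was -0.014 ± 0.32 (interval -0.68 to 0.65, adjusted p = 0.998), with an exact permutation p of 0.9. With 3 libraries in each group, every assignment has a mirror image of equal size, so the smallest possible p there was 0.1. There 3.40% of hairpin names were called, 1.36% as higher and 2.04% as lower. Its sign changed without WT skin replicate 2 (0.090) or 3 (0.12) or TAp63-/- skin replicate 2 (0.021) or 3 (0.049). Adjusted over these 5 permutation tests, the smallest p was 0.333. The interaction of the arm difference was -0.49 ± 0.47 (interval -1.46 to 0.48, adjusted p = 0.735), where limma called 0 hairpin names, with 19 at an unadjusted p under 0.05. Without WT skin replicate 1 the interaction was -0.26.

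**Figure D3:**
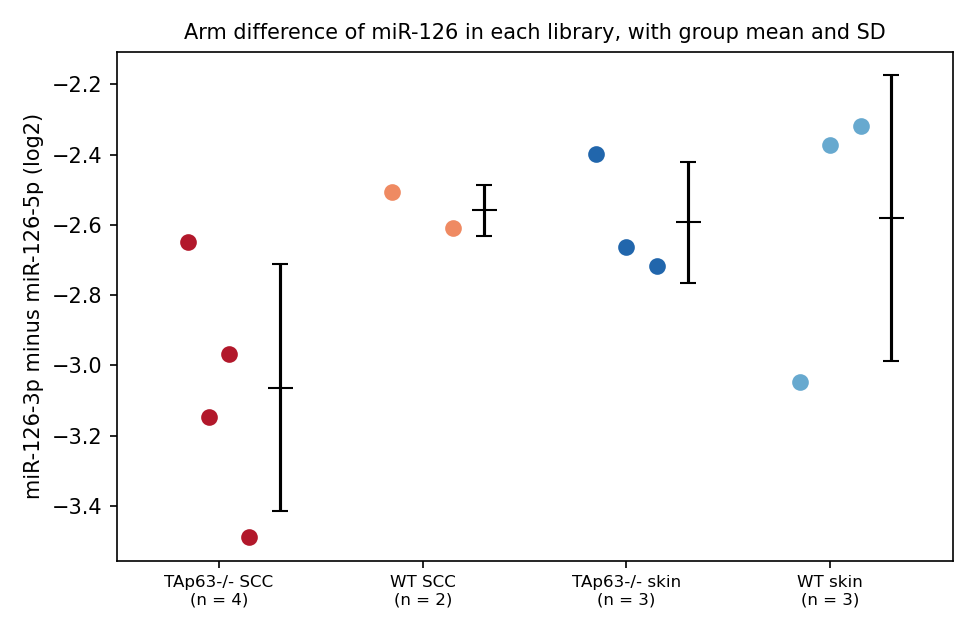
Log2 of miR-126-3p minus log2 of miR-126-5p in each library, by group; bars are the group mean and SD. TAp63-/- SCC spans -3.49 to -2.65 and lies below both WT SCC libraries, while the lowest skin library is WT skin replicate 1 at -3.05.

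The same arm difference was fitted for all 147 hairpin names with both arms tested. Of these, 64 had more of the 5p arm in all 12 libraries, as miR-126 did, 46 had more of the 3p arm in all 12, and 37 changed side. Among the 77 names with both arms above the floor in all libraries, miR-126 was second by the mean level of its arms. The median size of the arm difference among the 77 was 4.58 on the log2 scale, against 2.74 for miR-126, and 28 names had a smaller one. The within-group SD of the arm difference was 0.31 for miR-126 and had a median of 0.46 over the 77, with 10 names below miR-126. In the averaged tumour comparison, 40.8% of the 147 arm differences were called, 24.5% as higher and 16.3% as lower, and that of miR-126 was not called.

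**Figure D4:**
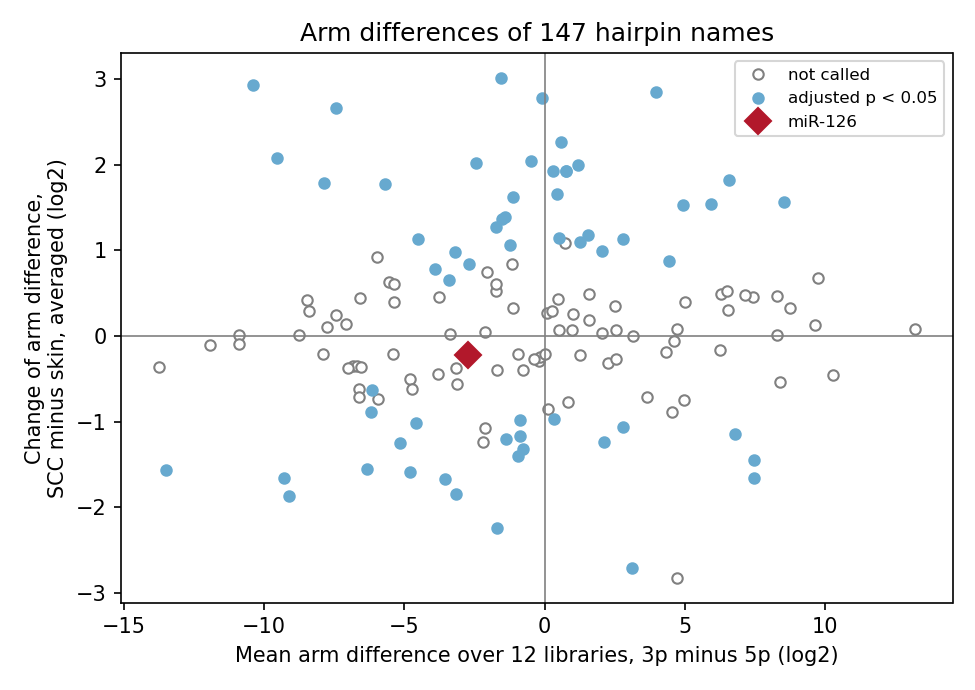
Each point is 1 of 147 hairpin names: the x axis is its mean log2 arm difference (3p minus 5p) over 12 libraries, and the y axis the change of that difference in SCC minus skin, averaged over genotypes. miR-126 (diamond) lies at -2.74 and -0.22, among the names that were not called (open points).

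The miRNAs most like each arm were found by the root mean square distance between log2 profiles over the 12 libraries, each less its own mean, among the 315 miRNAs above the floor in all libraries. The nearest to miR-126-5p were miR-23b-3p (distance 0.24), miR-674-5p (0.25), miR-30c-5p (0.26), let-7a-5p (0.26), let-7d-3p (0.26) and miR-27a-3p (0.26). Of these, miR-27a-3p rose in SCC by 0.65 ± 0.16 in the averaged comparison (SE, limma adjusted p = 0.00889), let-7d-3p by 0.67 ± 0.19 (adjusted p = 0.0146) and miR-23b-3p by 0.56 ± 0.17 (adjusted p = 0.0224). Not called were miR-674-5p (0.51 ± 0.20, adjusted p = 0.0579), let-7a-5p (0.30 ± 0.17, 0.187) and miR-30c-5p (0.26 ± 0.16, 0.218). Among all 544 miRNAs 20.4% were called higher. Because miR-126-5p was itself higher in SCC, a near profile tends to be higher too, so these calls are not separate evidence. The call of miR-23b-3p ended without WT skin replicate 3 (adjusted p = 0.0542), TAp63-/- skin replicate 1 (0.0524) or WT SCC replicate 2 (0.0681). The nearest to miR-126-3p were miR-674-5p (0.24), miR-26b-5p (0.25), miR-30c-5p (0.25), let-7g-5p (0.27), miR-450a-5p (0.29) and miR-16-5p (0.29). The arms themselves were 0.34 apart, so that miR-126-5p held place 16 among the neighbours of miR-126-3p, and miR-126-3p place 22 among those of miR-126-5p. The median distance of the other miRNAs was 0.74 from miR-126-3p and 0.76 from miR-126-5p. The distance was not scaled for spread, so miRNAs that vary little lie near each other whatever their pattern. A profile without variation would lie no further from an arm than that arm's SD over the 12 libraries. That SD was 0.243 for miR-126-3p, and none of its listed miRNAs was nearer (0.245 at the nearest). For miR-126-5p it was 0.340, and its 6 listed miRNAs were nearer, but miR-126-3p was not.

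In level, the neighbours of miR-126-5p were miR-191-5p (mean log2 level 15.99 ± 0.34, SD over 12 libraries), let-7i-5p (15.79 ± 0.53), miR-30d-5p (15.50 ± 0.28) and miR-199b-3p (15.48 ± 0.28). None of the 4 kept 1 side: each was above miR-126-5p in 4 to 7 of the 12 libraries. The neighbours of miR-126-3p were miR-151-5p (13.23 ± 0.36), let-7d-5p (13.18 ± 0.42), miR-192-5p (12.88 ± 0.50) and miR-30b-5p (12.85 ± 0.31), which were above miR-126-3p in 3 to 10 of the 12 libraries.

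Other miRNAs studied in endothelium and blood vessel growth did not share 1 direction with miR-126-5p. The list has 21 names, of which 18 were tested. Averaged over genotypes, SCC had 6 of them higher than skin, 5 lower and 7 not called, where 20.4% of all 544 miRNAs were called higher and 21.5% lower. Their median change was 0.32, against 0.044 for the 544 miRNAs, and the counts ran from 4 to 6 higher and from 4 to 6 lower over the alternative settings, counted after seeing the data. Within TAp63-/- mice 3 were higher, 4 lower and 11 not called, beside 16.0% higher and 18.2% lower of the 544. Within WT mice 1 was higher, 2 lower and 15 not called, beside 8.82% higher and 9.38% lower of the 544. The summed linear level of the list, on a log2 scale, was 20.11 to 20.66 in TAp63-/- SCC, 20.67 to 20.95 in WT SCC, 20.88 to 21.15 in TAp63-/- skin and 21.14 to 21.15 in WT skin. Such a sum is carried by the most abundant members. The largest in skin was miR-10b-5p, which averaged 20.00 in both skin groups, 17.99 in TAp63-/- SCC and 18.62 in WT SCC. The largest in SCC was miR-27b-3p, at 19.25 in TAp63-/- and 19.38 in WT tumours. miR-23b-3p and miR-27a-3p, among the nearest profiles to miR-126-5p, are also among the 6 called higher. They were picked as near profiles in these same libraries, so their calls are not separate evidence. The 4 called members with the smallest p are described next. miR-92a-3p, which restrains vessel growth in mice, rose by 2.81 ± 0.30 on the log2 scale (adjusted p = 3.9e-05). miR-100-5p, a repressor of mTOR, fell by 3.14 ± 0.25 (adjusted p = 8.0e-06), miR-10b-5p, encoded within a Hox cluster, fell by 1.69 ± 0.14 (adjusted p = 1.3e-05), and miR-218-5p, whose hosts are the Slit genes, fell by 1.78 ± 0.28 (adjusted p = 5.3e-04). miR-10b-5p held the highest value in all 6 skin libraries, which caps its level there. miR-296-5p and miR-217-5p were at the floor in all 12 libraries, and miR-503-5p was above it in 1.

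**Figure D5:**
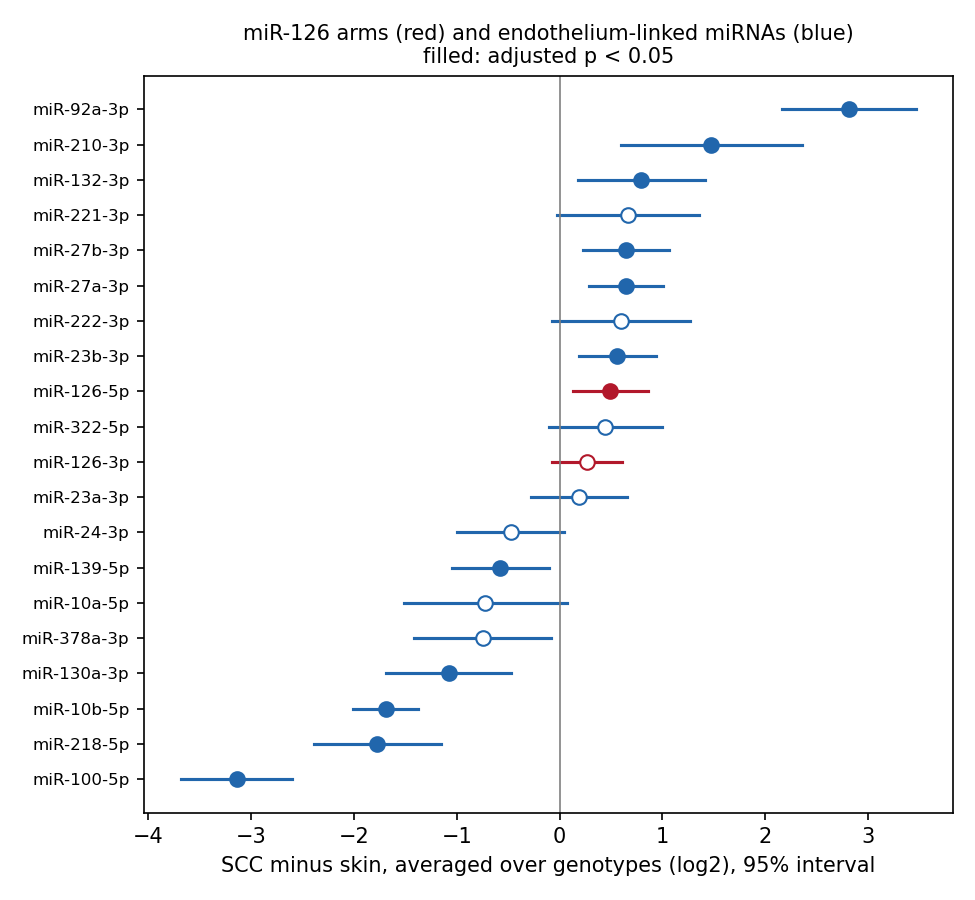
Log2 change in SCC minus skin, averaged over genotypes, with 95% intervals, for both miR-126 arms (red) and the 18 tested miRNAs linked to endothelium or vessel growth (blue); filled points have an adjusted p under 0.05. miR-126-5p (0.50) and miR-126-3p (0.27) lie between miR-92a-3p at 2.81 and miR-100-5p at -3.14.

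Blood cells also carry miR-126, and some of their miRNAs differed between SCC and skin. Of the 5 red cell miRNAs, the averaged comparison called 2 higher and 1 lower in SCC, against 20.4% higher and 21.5% lower among the 544. Of these 3, miR-451a rose by 2.61 ± 0.47 (adjusted p = 0.00126) and miR-144-3p by 2.14 ± 0.41 (adjusted p = 0.00178), while miR-486-3p fell by 2.35 ± 0.30 (adjusted p = 1.2e-04). The other 2, miR-486-5p (-0.69 ± 0.40, adjusted p = 0.193) and miR-144-5p (1.04 ± 0.44, adjusted p = 0.0842), were not called. miR-486-5p had the highest mean level of the 5 in every group, so it weighs most in their sum. The summed linear level of the 5, on a log2 scale, ran from 14.07 to 16.58 in TAp63-/- SCC, 14.64 to 15.87 in WT SCC, 15.11 to 16.20 in TAp63-/- skin and 15.19 to 15.76 in WT skin. Of 7 leukocyte and platelet miRNAs, 5 were tested, 2 were higher and 1 lower, against the same shares of 20.4% and 21.5%. miR-142-3p rose by 1.19 ± 0.30 (adjusted p = 0.00889), miR-146a-5p fell by 2.50 ± 0.25 (adjusted p = 2.7e-05), and miR-223-3p rose by 1.202 ± 0.327 (adjusted p = 0.0125), a call lost without WT SCC replicate 1 (0.89, adjusted p = 0.0793). The summed level of the 7 was 14.08 to 15.99 in TAp63-/- SCC, 15.03 to 15.47 in WT SCC, 15.13 to 15.18 in TAp63-/- skin and 14.96 to 15.26 in WT skin, with miR-223-5p and miR-155-5p at the floor in all 12 libraries. The part of these cells in the change of miR-126-5p was not tested.

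None of the smooth muscle, pericyte and fibroblast miRNAs listed was called higher in SCC. The counts of these small lists stand beside 20.4% higher and 21.5% lower among the 544 miRNAs in the averaged comparison. Of 4 smooth muscle and pericyte miRNAs, 1 was lower and 3 were not called in the averaged comparison, with a median change of -0.64. Their summed level was 17.085 to 18.49 in TAp63-/- SCC, 17.56 to 17.74 in WT SCC, 18.50 to 19.26 in TAp63-/- skin and 17.28 to 18.23 in WT skin. Of 6 fibroblast miRNAs, 3 were lower and 3 not called, with a median change of -0.65, and 2 of these rows, miR-199a-3p and miR-199b-3p, hold the same values. The summed level of the fibroblast list overlapped between all groups, at 16.18 to 16.95 in TAp63-/- SCC, 16.35 to 16.64 in WT SCC, 16.43 to 16.90 in TAp63-/- skin and 16.29 to 16.90 in WT skin. Of 5 striated muscle miRNAs 4 were lower, with a median change of -2.61 over the list. The remaining one, miR-499-5p, went the other way, by 1.199 ± 0.553, and was not called (adjusted p = 0.1104). Within TAp63-/- mice miR-499-5p was called higher (1.986 ± 0.710, adjusted p = 0.04998). It was at the floor in every skin library. The summed level of the striated muscle list was 12.21 to 13.97 in TAp63-/- SCC and 12.53 to 14.94 in WT SCC. In skin that level was 16.02 to 16.46 in TAp63-/- mice and 16.16 to 16.28 in WT mice. Both melanocyte miRNAs were lower, at a summed level of 6.47 to 7.59 in TAp63-/- SCC, 8.45 to 10.73 in WT SCC, 11.18 to 12.67 in TAp63-/- skin and 12.18 to 12.59 in WT skin. Of the 8 keratinocyte and epithelial miRNAs, 1 was higher and 2 were lower, near the 20.4% and 21.5% of the 544, with a median change of -0.37. miR-205-5p rose by 1.55 ± 0.19 (SE, limma adjusted p = 1.1e-04). miR-184-3p fell by 2.66 ± 0.54 (adjusted p = 0.00251) and miR-203-3p by 0.60 ± 0.21 (adjusted p = 0.0416). The call of miR-203-3p was lost under median-ratio scaling (adjusted p = 0.0952), with the 5 most abundant miRNAs left out (0.0958), with library quality weights (0.0709), without trend and robust moderation (0.0514) and without 7 of the 12 libraries (adjusted p of 0.0612 to 0.106). The part of these tissues in the change of miR-126-5p was not tested.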

How the data were processed

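The labels' protocols give miRVana extraction of total RNA from flash-frozen tissue. The authors deposited 1 table of log2 values. Its build is mm10 (per the submitters' processing notes). For the aligner and counting tool, the sources used here name nothing. The deposited log2 values look quantile normalized between libraries, judged from the values, with a floor at 10 on the linear scale. Each of the 12 columns matched the title of 1 sample. Replicates were numbered in accession order.

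Rows needed a value above the floor in 2 or more libraries, which left 544 miRNAs for limma 3.58.1 (R 4.3.3), using 1 mean for each of 4 groups (8 residual degrees of freedom) and trended, robust moderation. Adjustment was by Benjamini-Hochberg over all of them, and an adjusted p under 0.05 was called. Arm differences of 147 hairpin names were fitted likewise, with the trend on the mean level of both arms. Besides both arms, the text names the 6 nearest profiles and 2 neighbours in level on each side. From the endothelium-linked, blood cell and keratinocyte lists it names up to 4 called members by smallest p in the averaged comparison. Also named are markers at or near the floor, 2 fibroblast rows with equal values and 1 striated muscle miRNA that went against its list. So are the 2 red cell miRNAs not called, and the most abundant endothelium-linked miRNAs in skin and in SCC. Members, lists and rules were chosen with earlier results of these data known. Alternatives were log2 with 1 or 10 added, other scaling, filters, library weights, plain moderation, fits of 2 groups and each library left out.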

Additional observations from a re-analysis of the deposited data

How the results depend on the processing

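Of 156 alternatives other than leaving out a library, over 18 results (both arms and their difference in 6 comparisons), all but 1 kept the direction and the side of the threshold. The exception was miR-126-5p in SCC against skin of TAp63-/- mice with these groups fitted alone (0.61, adjusted p = 0.0867), where fewer libraries were fitted. Of 216 cases with 1 library left out, 193 kept both, 15 lost a call and 8 changed sign. miR-126-5p then ranged from 0.42 to 0.58 in SCC against skin averaged over genotypes, from 0.50 to 0.74 in TAp63-/- mice, and from -0.073 to 0.24 in TAp63-/- against WT SCC. The arm difference ranged from -0.21 to 0.15 in SCC against skin of WT mice and from -0.25 to 0.12 in TAp63-/- against WT skin. The cause was not tested. Counts of called miRNAs moved by over 1.5 times in SCC against skin of WT mice, where 99 became 32 without WT SCC replicate 1, and 65 or 61 when replicate 1 or 2 of WT skin was left out. Between genotypes, 1 became 0 to 13 in SCC (13 without WT SCC replicate 2) and 0 became 0 to 22 in skin (22 with library quality weights). In the interaction, 0 became 0 to 11 (11 without WT SCC replicate 2). Counts of called arm differences moved likewise. Averaged over genotypes, 60 of 147 became 39 of 77 with only miRNAs above the floor in all libraries. That setting fitted fewer hairpin names, so these counts are not over the same names. In TAp63-/- mice 38 became 24 without TAp63-/- skin replicate 1, and in WT mice 43 became 16 without WT SCC replicate 1. Between genotypes in skin 5 became 0 to 16 (16 with quality weights), and in the interaction 0 became 0 to 7 (7 without WT skin replicate 3). No paired analysis was possible because the labels give no replicate numbers. Depth is unknown, and only 2 WT tumours stand behind each comparison with WT SCC.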
